A study of Solanum lycopersicum with 2 samples.

Results

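Solyc05g052370, a laccase gene, and Solyc12g019230, a gene of the pectin lyase-like superfamily, were followed through the single cells of the tomato root. They are 2 of the 34716 genes in the count tables and were taken as rows by identifier. They were singled out because their counts were already known to be high in exodermal cells of these same libraries, so every exodermal level given here is a description and carries no test. Both also belong to the 180 genes of the suberin co-expression module that the study built from other samples. Neither is among the 821 genes that the study listed as induced by protoplasting.

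Laccases are multicopper oxidases of the cell wall that oxidise phenolic precursors, and in Arabidopsis several of them polymerise lignin in the xylem. Proteins of the pectin lyase-like superfamily share a fold found in enzymes that act on pectin, among them pectate lyases and polygalacturonases. In the tomato root the exodermis, a cortical layer just under the epidermis, lays down suberin, a polymer of lipids and phenolics, on the inner side of its walls. SlASFT (Solyc03g097500), used here to mark exodermal cells, encodes the transferase that joins ferulate to the aliphatic part of suberin.

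The cells were protoplasts of wild-type M82 root tips, cut about 3 cm from the tip at 7 days after sowing, with 50 to 100 primary roots pooled for each library. Walls had been removed with cellulases, macerozyme and pectolyase, and transcripts were tagged at their 3′ ends with unique molecular identifiers (UMIs, each standing for 1 captured transcript). Replicate 1 and replicate 2 were libraries of the same group, and the design holds no contrast between conditions. Nothing in the labels says whether the 2 pools came from separate sowings. With the library as a block, the p-values below measure how far differences between classes varied from 1 library to the other, pooled over the classes. They cover these 2 libraries only.

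Replicate 1 held 187215851 UMIs in 12481 barcodes and replicate 2 held 81175339 UMIs in 10253 barcodes, of which 12403 and 10231 cells passed the filters. The median cell had 8068 UMIs in replicate 1 and 3801 in replicate 2. The libraries shared 38 barcode sequences, and on these a UMI of either gene was seen in 0 cells of replicate 1 and 1 cell of replicate 2. Cells were put into classes by marker genes. A cell was called exodermal with at least 2 UMIs of SlASFT, and xylem or endodermis with UMIs of at least 2 markers of that tissue. Cells that met the rule of more than 1 class were left out of the classes. A cell could still hold marker UMIs of another class below its limit. In replicates 1 and 2, xylem cells held 1 and 1 SlASFT UMIs and endodermis cells 2 and 6. Xylem markers were 5 genes for secondary-wall cellulose synthases and NAC factors, and endodermis markers were 6 genes for Casparian strip membrane proteins, MYB36-type factors and SCARECROW. This gave 67 and 242 exodermal cells in replicates 1 and 2, 78 and 90 xylem cells, 246 and 323 endodermis cells, and 11924 and 9531 unmarked cells. A further class, marked by iron and potassium uptake genes of outer cells, held 79 and 18 cells. The tables give no gene descriptions, so marker identities rest on general knowledge of tomato genes and were not checked against the files.

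Both genes were detected in few cells. The laccase had 495 UMIs in 94 cells of replicate 1, which was 0.758% of cells (exact 95% binomial interval 0.613% to 0.927%). In replicate 2 it had 952 UMIs in 245 cells, or 2.39% (2.11% to 2.71%). The pectin lyase-like gene had 66 UMIs in 32 cells of replicate 1, or 0.258% (0.177% to 0.364%), and 142 UMIs in 79 cells of replicate 2, or 0.772% (0.612% to 0.961%). For each gene the share of cells was higher in replicate 2, the library with the lower depth, and the intervals of the libraries did not overlap. These intervals cover counting error only. The share of cells with SlASFT was also higher there, at 4.50% compared with 1.38%, so the libraries held different shares of marked exodermal cells.

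The counts were uneven across the positive cells. A single UMI of the laccase was found in 45 of its 94 cells in replicate 1 and in 112 of its 245 cells in replicate 2, whereas 27 and 50 cells held 5 or more. Those few cells carried 79.6% and 63.6% of all laccase UMIs, and the highest cell had 67 UMIs in replicate 1 and 50 in replicate 2. Counts of the pectin lyase-like gene were sparser, with a single UMI in 20 of its 32 cells and 47 of its 79 cells, 5 or more in 3 and 5 cells, and 12 and 8 UMIs in the highest cell. Most positive cells of the laccase thus had 4 UMIs or fewer while most of its transcripts lay in the cells with 5 or more.

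The level in each class is given as counts per 1000000 UMIs of the summed cells (CPM), with an exact 95% Poisson interval. Here and below such an interval covers counting error only and leaves out the spread between cells, over which the counts were uneven. In exodermal cells the laccase had 422 UMIs and 1044 CPM (947 to 1148) in replicate 1, and 767 UMIs and 586 CPM (546 to 629) in replicate 2. The mean was 815 CPM ± 323 (SD, n = 2). A UMI was present in 74.6% of exodermal cells in replicate 1 and 66.5% in replicate 2. In exodermal cells the pectin lyase-like gene had 55 UMIs and 136 CPM (102 to 177) in replicate 1, and 105 UMIs and 80.3 CPM (65.7 to 97.2) in replicate 2. Its mean was 108 CPM ± 39.4 (SD, n = 2), and it was seen in 31.3% and 23.1% of exodermal cells. In this class both genes had the higher exodermal level in replicate 1, although fewer cells were marked there. That order did not hold under all settings given below.

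Xylem is the tissue in which laccases are best known, and the question was whether Solyc05g052370 was also detected there. In replicate 1 no laccase UMI was found in 78 xylem cells, which allows a share of up to 3.85%. This limits cells with a laccase UMI, not cells expressing the gene. Read as at most 3 UMIs, the count allows a level of up to 2.28 CPM. In replicate 2 a single laccase UMI was found in 90 xylem cells, or 1.48 CPM (0.0374 to 8.23). The pectin lyase-like gene had 0 UMIs in the xylem cells of both libraries, where 3 UMIs would stand at 2.28 and 4.43 CPM. Against 3 UMIs in each library, the exodermal level of this gene was at least 59.7-fold higher than in xylem cells in replicate 1 and at least 18.1-fold higher in replicate 2. For the laccase, the exodermal level in replicate 1 was at least 458-fold that in xylem cells.

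The endodermis is the inner barrier layer, with a lignin-based Casparian strip. The median depth of its cells was 19024 and 6012 UMIs. No laccase UMI was found in 246 endodermis cells of replicate 1 or in 323 of replicate 2, which allows a UMI in up to 1.22% and 0.929% of cells, or 0.519 and 0.985 CPM at 3 UMIs. Against that level of 3 UMIs, the exodermal level of the laccase was at least 2012-fold higher than in endodermis cells in replicate 1 and at least 595-fold higher in replicate 2. The pectin lyase-like gene had 0 UMIs in endodermis cells of replicate 1, an exodermal level at least 262-fold higher, and 1 UMI in those of replicate 2, or 0.328 CPM (0.00831 to 1.83). The uptake-marked class held no UMI of either gene in either library.

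The count of 0 in the endodermis depended on how the classes were drawn. When 5 SlASFT UMIs were required of exodermal cells, the endodermis class of replicate 2 gained 1 cell, and its 324 cells then held 6 laccase UMIs in 1 cell, or 1.95 CPM. The exodermal level of the laccase in replicate 2 was then 435-fold that of the endodermis (200-fold to 1185-fold from the counting error of the endodermis). The pectin lyase-like gene had 4 UMIs in 2 of these cells, or 1.30 CPM. With a single marker enough, the laccase had 8 UMIs in 6 of 595 endodermis cells of replicate 2 (1.56 CPM) and 5 UMIs in 3 of 355 xylem cells (1.51 CPM). In replicate 1 these settings gave no laccase UMI in the endodermis, and the single-marker setting gave 2 in 444 xylem cells.

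**Figure D1:**
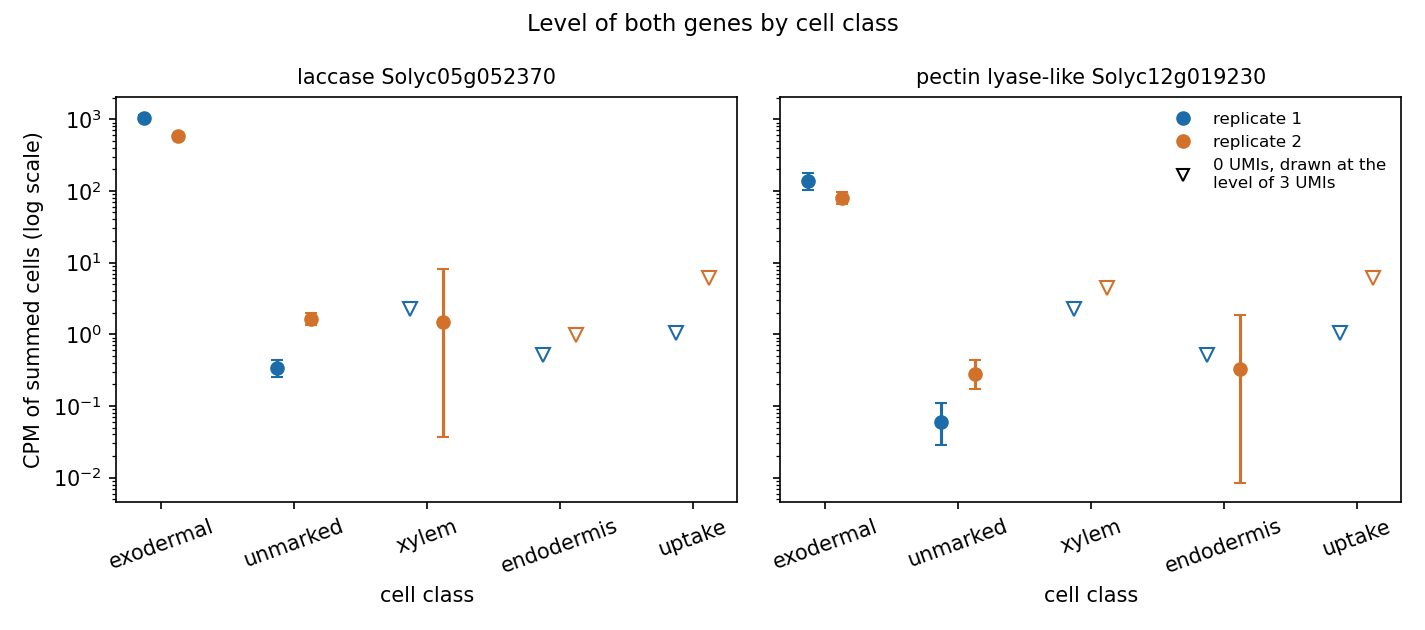
Level of the laccase (left) and the pectin lyase-like gene (right) in CPM of the summed cells, on a log axis, by cell class and library. Points are the values of replicate 1 (blue) and replicate 2 (orange) with exact 95% Poisson intervals, and open triangles mark classes with 0 UMIs, drawn at the level of 3 UMIs. The exodermal points lie at 1044 and 586 CPM for the laccase and at 136 and 80.3 CPM for the pectin lyase-like gene, and no other class passes 10 CPM.

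The level in unmarked cells served as the background. The laccase had 56 UMIs in unmarked cells of replicate 1 (0.334 CPM) and 115 in replicate 2 (1.63 CPM), in 0.344% and 0.829% of cells. There were 10 UMIs of the pectin lyase-like gene (0.0596 CPM) and 20 UMIs (0.283 CPM), in 0.0839% and 0.189% of cells. These cells were deeper than exodermal cells, with a median of 7845 and 3749 UMIs compared with 2646 and 2196.5. Unmarked cells with a UMI of the sucrose transporter SUT1, a phloem gene, were taken as cells that should lack both genes, a choice made after the data were seen, and had a median of 17337 and 5777 UMIs. There the laccase was found in 1 of 518 cells in replicate 1 and 2 of 855 in replicate 2, or 0.193% and 0.234%. For the pectin lyase-like gene the numbers were 0 of the 518 cells and 2 of the 855. The intervals of the shares in xylem and endodermis cells included these background shares in both libraries. With 0 or 1 positive cell in a class the intervals are too wide to exclude shares this low, so the inclusion decides nothing. The UMIs there are not read as expression. How much of the unmarked signal comes from free RNA and how much from exodermal cells with too few SlASFT UMIs to be marked was not tested.

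Counts were summed by class and library and fitted over all 12900 genes that passed the filter, with the library as a block (edgeR's quasi-likelihood test, Benjamini-Hochberg adjustment, 4 residual degrees of freedom). Neither gene was called between xylem and endodermis cells, a comparison in which 22.2% of all genes tested were called (12.8% higher and 9.43% lower in xylem). The adjusted p was 0.599 for Solyc05g052370 and 0.831 for Solyc12g019230. Each xylem and endodermis sum held 0 or 1 UMI of either gene, too few for a call. This comparison therefore says nothing about their levels. Both genes passed the filter through their exodermal sums alone. Neither was called between xylem and unmarked cells, where 17.8% of genes were called (10.6% higher and 7.28% lower), with an adjusted p of 0.914 and 0.795. Neither was called between endodermis and unmarked cells, where 16.4% of genes were called (8.42% higher and 7.99% lower), with an adjusted p of 0.336 and 0.960. The missing calls against unmarked cells are not read as equal levels. With 0 or 1 UMI in each sum no fold change is given, and the unmarked level of either gene lay below the level of 3 UMIs in the xylem class of both libraries, so a lower level in xylem was not detectable at this depth. The same held for the pectin lyase-like gene in the endodermis. For the laccase in the endodermis the libraries differed. The level of 3 UMIs was 0.519 CPM in replicate 1, above the 0.334 CPM of unmarked cells, and 0.985 CPM in replicate 2, below the 1.63 CPM of unmarked cells. Without the filter on low counts the adjusted p of the laccase in this comparison was 0.00391, and it was then called lower in endodermis cells. With 5 SlASFT UMIs required of exodermal cells it was 0.608.

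The next question was how often each gene was seen in the same cell as SlASFT. Of the laccase-positive cells, 58 of 94 (61.7%, exact 95% binomial interval 51.1% to 71.5%) also held SlASFT in replicate 1, and 189 of 245 (77.1%) in replicate 2. In the other direction, 58 of 171 SlASFT-positive cells (33.9%) held the laccase in replicate 1 and 189 of 460 (41.1%) in replicate 2. Outside these cells the laccase was rare, in 0.294% and 0.573% of the cells without SlASFT. For the pectin lyase-like gene, 23 of 32 positive cells (71.9%) and 64 of 79 (81.0%) also held SlASFT, while 13.5% and 13.9% of SlASFT-positive cells held the gene. Of cells without SlASFT, 0.0736% and 0.154% held it. The mean share of laccase cells with SlASFT was 69.4% ± 10.9 (SD, n = 2) and that of pectin lyase-like cells 76.4% ± 6.46 (SD, n = 2), a gap smaller than the spread of the first over libraries.

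Since a deep cell has more chances of holding any transcript, each cell was also thinned to 1000 UMIs, which kept 12403 cells of replicate 1 and 8780 of replicate 2. After thinning, 39 of 56 laccase cells (69.6%) and 85 of 109 (78.0%) held SlASFT, and 11 of 13 (84.6%) and 19 of 21 (90.5%) of pectin lyase-like cells did. Of thinned cells without SlASFT, 0.138% and 0.280% held the laccase.

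The share of positive cells was higher at each step in the number of SlASFT UMIs in a cell. It was, for the laccase in replicate 1, 0.294% of cells with no SlASFT UMI, 4.95% with 1 UMI, 59.3% with 2 to 4 UMIs and 86.0% with 5 or more. In replicate 2 the same steps were 0.573%, 11.2%, 52.3% and 78.8%. The level followed, with 0.243, 12.5, 382 and 972 CPM at these steps of replicate 1 and 0.901, 24.9, 206 and 874 CPM at those of replicate 2. For the level, the intervals of the 4 steps, which leave out the spread between cells, did not overlap in either library. The median depth of the cells at these steps was 8143, 3136, 1654 and 5500 UMIs in replicate 1 and 3837, 4167, 1343 and 2827 UMIs in replicate 2, and its part in the shares was not tested.

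For the pectin lyase-like gene the shares were 0.0736%, 0.990%, 22.2% and 37.2% in replicate 1, and 0.154%, 1.87%, 14.7% and 32.1% in replicate 2. Without SlASFT its level was 0.0509 CPM in replicate 1 and 0.232 CPM in replicate 2, and at 5 or more SlASFT UMIs it was 121 and 122 CPM. At 2 to 4 SlASFT UMIs it was 58.7 CPM (25.4 to 116) in replicate 1, which overlapped the interval of the highest step (88.9 to 160), and 36.7 CPM (22.7 to 56.1) in replicate 2, which did not. The 1-UMI step held 1 and 4 UMIs of the gene, so its order against the cells without SlASFT is not read for replicate 1.

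**Figure D2:**
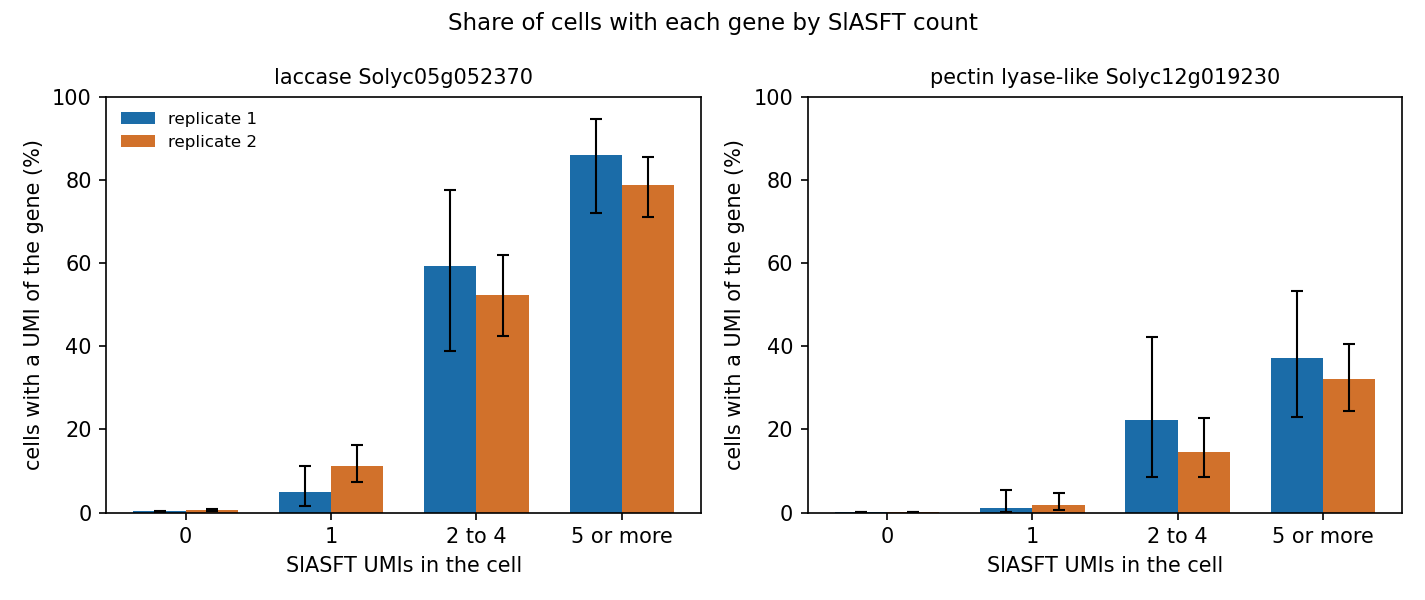
Share of cells with at least 1 UMI of the laccase (left) or the pectin lyase-like gene (right), in percent, by the number of SlASFT UMIs in the cell. Bars are replicate 1 (blue) and replicate 2 (orange), and lines are exact 95% binomial intervals. The laccase goes from 0.294% to 86.0% in replicate 1 and from 0.573% to 78.8% in replicate 2, and the pectin lyase-like gene reaches 37.2% and 32.1%.

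Positive cells without SlASFT were examined for other genes of the pathway. There were 36 such laccase cells in replicate 1 and 56 in replicate 2, and most held a single laccase UMI (33 and 50 cells). At least 1 of 8 other suberin genes, which encode elongation enzymes, a fatty acyl reductase, cytochromes P450, acyltransferases and an acyl-CoA synthetase, was seen in 36.1% and 37.5% of them. Among cells with neither SlASFT nor the laccase the share was 5.41% and 4.26%, at a median depth of 8140.5 and 3842 UMIs compared with 9750 and 3084.5. For the pectin lyase-like gene there were 9 and 15 such cells, of which 22.2% and 20.0% held another suberin gene. None of these cells was marked as endodermis or xylem except 1 laccase cell in xylem and 1 pectin lyase-like cell in endodermis, both in replicate 2.

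Taking the same question from the other side, cells with no SlASFT UMI but with at least 2 other suberin genes numbered 37 in replicate 1 and 29 in replicate 2. The laccase was found in 4 of the 37 cells (6.96 CPM) and in 10 of the 29 (96.6 CPM). The 37 cells of replicate 1 were deep, with a median of 33108 UMIs, whereas the 29 cells of replicate 2 had a median of 3749. The pectin lyase-like gene was found in 0 and 1 of these cells. When the exodermal class was drawn from the 8 other suberin genes alone, as any cell with at least 2 of them, it held 93 and 251 cells. The laccase was then at 229 CPM in replicate 1 and 566 CPM in replicate 2, and the pectin lyase-like gene at 26.5 and 77.6 CPM. In replicate 2 these levels were close to those of the SlASFT-marked class, and in replicate 1 they were lower for both genes. Only 37 of the 93 cells and 29 of the 251 had no SlASFT UMI, so this class is not separate from the SlASFT-marked one. This class was chosen after the data were seen.

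Exodermal cells differed in how far they carried both genes. In replicate 1, 19 of 67 exodermal cells held both, 31 the laccase alone, 2 the pectin lyase-like gene alone and 15 neither. In replicate 2, the same numbers were 54, 107, 2 and 79 of 242. Of the exodermal cells with the pectin lyase-like gene, 90.5% in replicate 1 and 96.4% in replicate 2 also held the laccase, whereas the laccase was in 67.4% and 57.5% of exodermal cells without it. Cells with both had a median of 17 and 11.5 SlASFT UMIs, and cells with neither had a median of 3 in each library. Depth moved with these groups, with a median of 3000 and 2643 UMIs in cells with both compared with 1988 and 2208 in cells with neither, and its part in the overlap was not tested.

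The ratio of the 2 genes was compared between the libraries. Laccase UMIs outnumbered pectin lyase-like UMIs 7.67 to 1 in exodermal cells of replicate 1 and 7.30 to 1 in those of replicate 2, and by 5.60 and 5.75 to 1 in unmarked cells. Over all cells outside the exodermal class the ratios were 6.64 and 5.0 to 1. This set included cells with marks of more than 1 class. In replicate 2 those cells held 69 of its 185 laccase UMIs and 16 of its 37 pectin lyase-like UMIs. In the class by 2 other suberin genes the ratios were 8.63 and 7.30 to 1. These are ratios of captured 3′ ends and do not compare transcript numbers in the cell between the genes. Against SlASFT the libraries were further apart. There were 0.488 laccase UMIs for each SlASFT UMI in exodermal cells of replicate 1 and 0.25 in those of replicate 2.

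Exodermal cells were then ordered by the share of their UMIs that came from the 8 other suberin genes and divided into 3 equal parts within each library. The laccase was at 234 CPM (177 to 303) in the lowest part of replicate 1, at 1846 CPM (1593 to 2128) in the middle part and at 3027 CPM (2595 to 3510) in the top part. In replicate 2 it was at 154 CPM (129 to 184), 1041 CPM (922 to 1171) and 1703 CPM (1532 to 1888). The intervals of the 3 parts did not overlap in either library, but they leave out the spread between cells, and the order was not tested. Of the cells, 65.2% held the laccase in the lowest part and 81.8% in the top part of replicate 1, and 50.6% and 78.8% in replicate 2.

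For the pectin lyase-like gene the 3 parts were at 28.7, 194 and 484 CPM in replicate 1 and at 18.1, 120 and 273 CPM in replicate 2. SlASFT, given for comparison, was at 764, 3138 and 6158 CPM in replicate 1 and at 592, 4051 and 7062 CPM in replicate 2. All 3 genes thus had their lowest level in the part with the least suberin transcripts. Depth fell along the same order, from a median of 8190 UMIs in the lowest part to 1804.5 in the top part of replicate 1 and from 4080 to 1492.5 in replicate 2. A deep cell reaches 2 SlASFT UMIs at a lower level, and the part of this in the order was not tested.

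**Figure D3:**
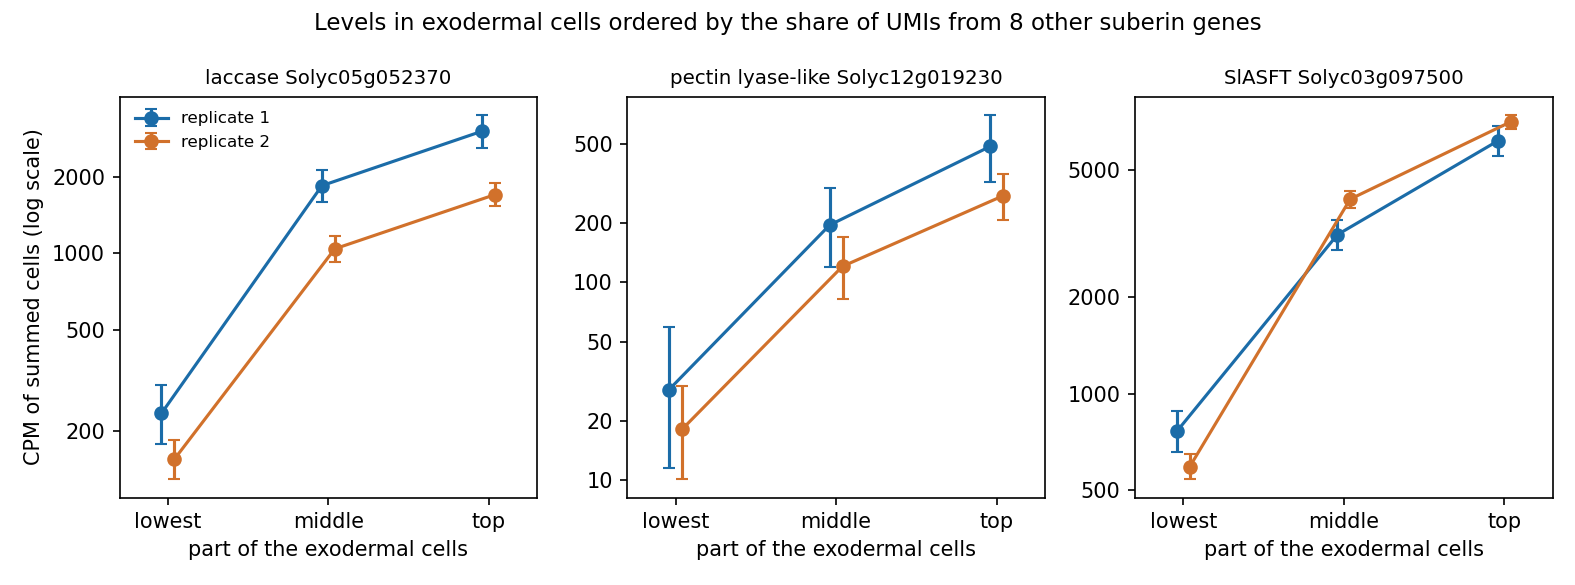
Level of the laccase, the pectin lyase-like gene and SlASFT in exodermal cells, in CPM of the summed cells on a log axis, for the lowest, middle and top part of the cells by the share of UMIs from 8 other suberin genes. Points are replicate 1 (blue) and replicate 2 (orange) with exact 95% Poisson intervals, joined for each library. In replicate 1 the laccase goes from 234 to 3027 CPM and the pectin lyase-like gene from 28.7 to 484 CPM.

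Which genes had a pattern most like that of each gene was asked by the ratio of CPM in cells with the gene to cells without it, with 5 CPM added to both and the lower value of the 2 libraries taken. For the laccase, 8390 genes with at least 10 UMIs in its cells could be ranked. The first was Solyc09g065420, a lipid transfer protein gene, with log2 ratios of 8.01 in replicate 1 and 7.19 in replicate 2, and it stood at 1702 and 1804 CPM in laccase cells compared with 1.64 and 7.36 CPM in the rest. SlASFT was at rank 2, with log2 ratios of 7.14 and 6.90. Solyc01g105770, described as an IgA FC receptor, and Solyc04g014320 and Solyc04g014330, both described as PELPK2-like, followed. All 5 belong to the suberin co-expression module. The pectin lyase-like gene ranked 41 in this list.

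For the pectin lyase-like gene 4432 genes could be ranked, and the laccase Solyc05g052370 stood at rank 2, with log2 ratios of 7.12 and 6.30. It reached 849 and 859 CPM in cells with the pectin lyase-like gene compared with 1.16 and 5.94 CPM in cells without it. Solyc09g065420 was again at the head, and the ranks after the laccase went to Solyc01g105770, the peroxidase gene Solyc06g050440, Solyc04g014290, described as PELPK1-like, and then SlASFT. The cells with either gene are few and overlap with the exodermal class, so these ranks describe the same small set of cells.

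Other laccase and pectin genes listed by the study were set beside the pair. They were chosen from the co-expression module and from a list of late exodermal genes, and Solyc06g082240 comes from the latter, which the study drew from these same libraries, so that its exodermal level is not independent evidence. The module also holds SlASFT, the gene that marks the exodermal class, so genes taken from it were selected for a pattern like its own. All 4 other laccase genes were called higher in exodermal than in unmarked cells, a comparison in which 7.78% of all genes tested were called higher and 3.16% lower. Given that selection, the 4 calls are a description and not evidence about the laccase family. Over these 4 genes the median log2 fold change was 8.86, compared with -0.07 over all genes tested. Solyc06g082240 came closest to Solyc05g052370 in exodermal level, at 643 and 518 CPM in replicates 1 and 2, with a log2 fold change of 8.73 ± 0.43 (SE) and an edgeR adjusted p of 5.09e-06. Solyc05g052340 was at 61.8 and 47.4 CPM, Solyc05g052360 at 34.6 and 45.9 CPM, and Solyc06g050530 at 47.0 and 146 CPM. Solyc05g052360 is the row next to Solyc05g052370 in the gene table and Solyc05g052340 is 2 rows further, and how reads shared by close copies were divided among them is uncertain.

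Of the 4 other pectin genes, Solyc01g087280 had no UMI in any class. The 3 that could be tested were all called higher in exodermal than in unmarked cells, as were 7.78% of all genes tested. All were taken from the module that also holds SlASFT, so these calls are a description and not evidence about the pectin family. Over these 3 the median log2 fold change was 7.93. Solyc04g080530, described as a pectinesterase, was at 56.9 and 110 CPM in exodermal cells, Solyc01g094970 at 27.2 and 45.1 CPM and Solyc02g068400 at 44.5 and 32.9 CPM, the last 2 described as pectin lyase-like. The exodermal level of Solyc12g019230 was above all 3 in replicate 1, with an interval apart from each of theirs, and lay between theirs in replicate 2.

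Higher in xylem than in unmarked cells were 1 of 4 laccase and 1 of 3 pectin genes, beside 10.6% of all genes tested. For endodermis against unmarked cells the numbers were 1 of 4 and 0 of 3, beside 8.42%. For xylem against endodermis cells they were 0 of 4 and 1 of 3, beside 12.8%. Such small numbers are not read against these shares. Solyc02g068400 was called higher in xylem than in unmarked cells, with a log2 fold change of 6.15 ± 0.57 (SE, edgeR adjusted p = 0.000194), and higher than in endodermis cells, by 6.0 ± 0.73 (adjusted p = 0.000716). It had 66 UMIs in xylem cells of replicate 1 and 58 in replicate 2, or 50.2 and 85.7 CPM, where Solyc12g019230 had 0 in both. The other 2 tested pectin genes were not called there. Among the laccases, Solyc05g052340 was called higher in xylem than in unmarked cells, by 5.65 ± 1.47 (SE, edgeR adjusted p = 0.0380). The call rested on 3 UMIs in 2 cells of replicate 1 and 3 UMIs in 1 cell of replicate 2. Solyc05g052340 passed the filter on low counts only with its exodermal sums. Without the library as a block the adjusted p was 0.0592 and it was no longer called.

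In the endodermis, where Solyc05g052370 had no UMI, Solyc06g082240 had 25 and 15 UMIs, or 4.32 and 4.92 CPM, and was called higher than in unmarked cells, by 1.82 ± 0.45 (SE, edgeR adjusted p = 0.0246). Without the block the adjusted p was 0.114. Solyc06g050530 had 11 and 9 UMIs there, or 1.90 and 2.95 CPM, and was not called, while Solyc05g052340 and Solyc05g052360 had none. A difference between genes in these contrasts was not itself tested. All 4 other laccase genes passed the filter on low counts only with their exodermal sums. Their calls in xylem and endodermis are therefore a description.

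Of 6 further wall-related genes from the same lists, 5 could be tested and all were called higher in exodermal than in unmarked cells, where 7.78% of all genes tested were. Of these 5, 4 are in the late exodermal list drawn from these same libraries, so their exodermal calls are not independent evidence. Genes of the module carry the limit given above for the laccases. Solyc02g078250, a CASP-like gene, was also higher in endodermis than in unmarked cells, by 3.80 ± 0.37 (SE, edgeR adjusted p = 0.000488), as was Solyc12g014420, a glucan endo-1,3-beta-glucosidase gene, by 2.21 ± 0.19 (adjusted p = 0.000166). Both were lower in xylem than in endodermis cells, the first of them with an adjusted p of 0.0380 that became 0.139 without the library as a block. The peroxidase gene Solyc06g050440, at 663 and 769 CPM in exodermal cells, the blue copper protein gene Solyc05g054900, at 260 and 307 CPM, and the CASP-like gene Solyc02g069730 were called in neither tissue. Both genes of interest were not called there either, with sums of 0 or 1 UMI.

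**Figure D4:**
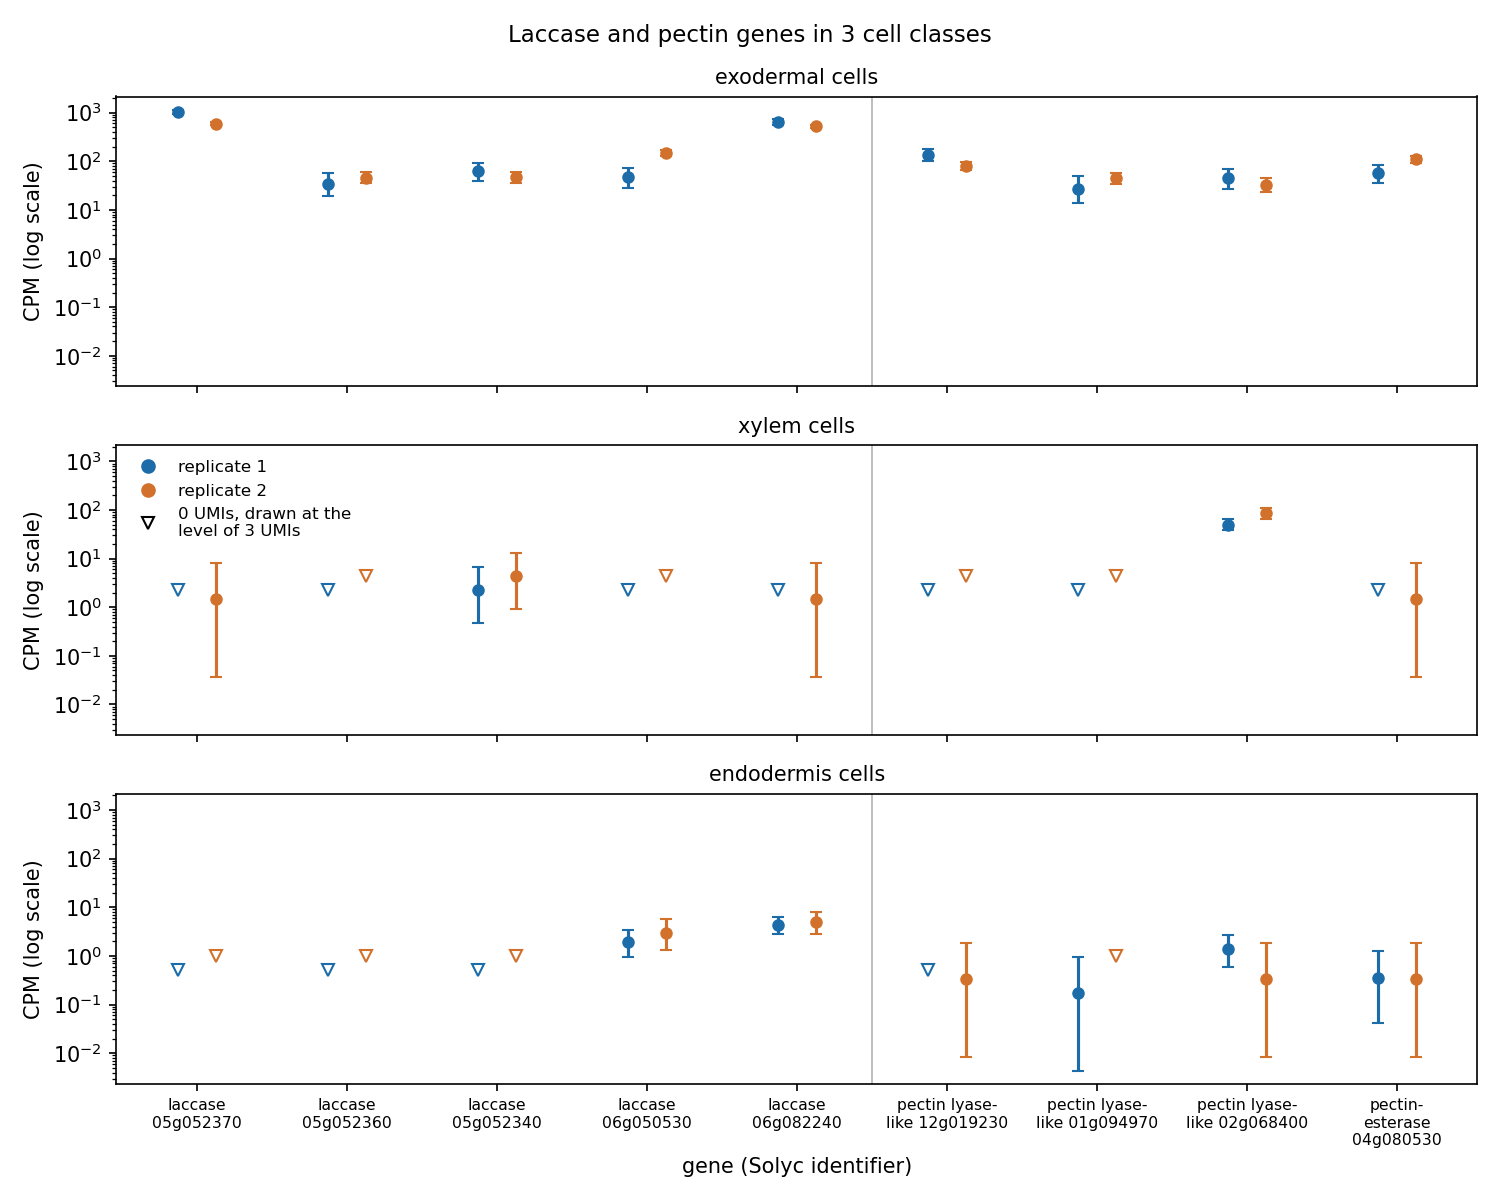
Level of 5 laccase genes (left of the line) and 4 pectin genes (right) in exodermal, xylem and endodermis cells, in CPM of the summed cells on a log axis. Points are replicate 1 (blue) and replicate 2 (orange) with exact 95% Poisson intervals, and open triangles mark 0 UMIs, drawn at the level of 3 UMIs. In the xylem panel Solyc02g068400 stands at 50.2 and 85.7 CPM while Solyc05g052370 and Solyc12g019230 have at most 1 UMI in a library.

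A few cells carried the marks of more than 1 class, 5 in replicate 1 and 6 in replicate 2. They held 17 and 69 laccase UMIs and 1 and 16 pectin lyase-like UMIs, at a median depth of 52875 and 15816.5 UMIs. These cells were left out of all classes. They stayed in counts that did not use the classes and in the ratios over all cells outside the exodermal class. Doublets were not removed otherwise. Leaving out the deepest 5% of cells gave an exodermal laccase level of 1044 CPM in replicate 1 and 768 CPM in replicate 2.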

How the data were processed

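Single-cell RNA sequencing of 2 libraries of tomato root protoplasts gave the count tables. The authors mapped reads with cellranger to the genome build SL4.0 with the ITAG4.1 annotation and appended organelle sequences, and deposited raw UMI counts per gene and called cell, without normalization. Gene names and descriptions come from the study's lists, since the tables hold identifiers only.

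Following the study's methods, cells under 500 UMIs or with over 1% organelle UMIs, genes seen in 3 cells or fewer, protoplasting-induced genes and, in addition, organelle genes were left out, which kept 21681 genes. Doublets were kept, since no step that removes them is stated. Markers seen in over 10% of barcodes of a library were dropped. Phloem markers gave 4 and 21 cells, too few for the fit, and no class of dividing cells was formed. CPM were computed over the genes kept. UMI counts were summed per library and class and tested with edgeR 4.0.16 (TMM, filterByExpr, glmQLFit and glmQLFTest) in R 4.3.3, at an adjusted p under 0.05, with the genes that define classes left out. The library was a block because each class in it comes from the same pool of roots. Standard errors were derived by dividing the absolute log2 fold change by the root of the F statistic. Shares carry exact (Clopper-Pearson) 95% intervals, and 0 UMIs were read as at most 3. Python 3.11.15 with numpy 2.4.6 and scipy 1.17.1 was used for the rest. The test was also run on simulated counts with changes set in the xylem class, only in genes of over 500 UMIs in all sums together. That run does not cover genes with almost no UMIs in the classes compared, such as the pair.

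The genes named were the pair, SlASFT, the other laccase and pectin genes of the study's lists, wall-related genes of the same lists, and the 5 genes most like each. The pair, the markers and the lists were chosen with earlier results of these data known. Alternatives were DESeq2's size factors, the Wald test of DESeq2 1.42.0, no replicate block, no filter on low counts, each library alone, other limits for markers, SlASFT, UMIs and organelle share, the deepest 5% of cells left out, protoplasting genes kept, and thinning to 1000 or 500 UMIs.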

Additional observations from a re-analysis of the deposited data

How the results depend on the processing

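Neither gene was called in a comparison of xylem, endodermis and unmarked cells under any alternative except 1. Without the filter on low counts the laccase was called lower in endodermis than in unmarked cells (adjusted p = 0.00391), and its adjusted p in that comparison lay between this value and 0.75 over all alternatives. In the reported fit the xylem and endodermis sums held 0 or 1 UMI of each gene, too few for a call between these 2 classes. The exodermal minus unmarked difference of log2(CPM + 1) was 9.61 and 7.81 for the laccase, and 7.02 and 5.99 for the pectin lyase-like gene, without replicate 2 and without replicate 1, each a value with no test. Their mean exodermal level moved to 1301 and 195 CPM after thinning to 1000 UMIs and to 1210 and 257 CPM after thinning to 500 UMIs. Thinning weights cells equally. It moved to 398 and 52.1 CPM in the class by 2 other suberin genes, added after seeing the data. In replicates 1 and 2 the laccase was at 1567 and 1034 CPM after thinning to 1000 UMIs, and at 1164 and 1256 CPM after thinning to 500. The pectin lyase-like gene was at 194 and 195 CPM, and at 299 and 215 CPM.

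Of SlASFT-positive cells, 71.4% held the laccase and 27.9% the pectin lyase-like gene when 2 SlASFT UMIs were required, 43.2% and 11% after thinning to 1000 UMIs, and 31.1% and 9.69% after thinning to 500. With cells of at least 1000 UMIs the pectin lyase-like share was 14.0%. Of laccase cells, 56.1% held SlASFT after thinning to 500 UMIs, and of pectin lyase-like cells 87.5% after thinning to 1000. The cause was not tested.

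The number of genes called in xylem minus endodermis, xylem minus unmarked, endodermis minus unmarked and exodermal minus unmarked was 2868, 2302, 2117 and 1412. Without the replicate block it was 1311, 908, 404 and 453. With at least 1 marker the first 3 counts were 1290, 551 and 1345. Without the filter the last 2 were 3246 and 2532, and the last was 922 with at least 3 markers and 2243 with 5 SlASFT UMIs. Of the 4 other laccase genes, the count called higher in xylem than in endodermis was 0 in the reported fit. It was 1 with the deepest 5% of cells left out, with the DESeq2 Wald test and without the filter, which also called 2 lower. Over all genes, 1651 of 12900 were called higher there in the reported fit. In these 3 settings it was 1707 of 12410, 1870 of 12900 and 1839 of 21664, with 1746 lower in the last. The 1 laccase gene called higher in xylem than in unmarked cells became 0 with at least 1 marker and without the block. All genes called higher there went from 1363 of 12900 to 443 of 16287 and 658 of 12900 in these settings. The 1 laccase gene called higher in endodermis than in unmarked cells became 0 with at least 1 marker, with 5 SlASFT UMIs, with the DESeq2 Wald test and without the block. It became 2 with the deepest cells left out and without the filter. Over all genes, 1086 of 12900 were called higher there in the reported fit. In the first 4 settings it was 647 of 16287, 1179 of 12885, 1180 of 12900 and 218 of 12900. In the others it was 1319 of 12410 and 1473 of 21664. With 4 genes these changes are not read as a trait of the laccases. Counts of exodermal cells are small, and classes rest on few UMIs of marker genes.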
